A study of Caenorhabditis elegans with 2 samples.

Results

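The 10 genes described here encode the guidance ligand UNC-129, the netrin UNC-6 and its receptors UNC-5 and UNC-40, and the ligand, receptors and Smads of the DBL-1 pathway of Caenorhabditis elegans. They were chosen by name, around unc-129, a known target of the forkhead transcription factor UNC-130, out of 19973 nuclear protein-coding genes. UNC-130 was mapped by chromatin immunoprecipitation and sequencing (ChIP-seq) in 2 biological replicates of whole young adult hermaphrodites, collected 56 hours after synchronization at starved L1. All worms were of strain AGK541. They carried the transgene armSi1, in which the promoter of mex-5, a gene active in the germline, drives UNC-130 fused to GFP ahead of the 3′ UTR of tbb-2, with cb-unc-119(+) on chromosome II. The background also held unc-119(ed3) on chromosome III and niDf199 on chromosome IV (position not given in the sources). The antibody recognised GFP, per the labels' description. There was 1 group and no second condition.

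UNC-130 is known to keep unc-129 off in ventral body wall muscle, so that the UNC-129 protein, a member of the TGF-beta family, comes mainly from dorsal muscle and helps motor axons to grow dorsally. Netrin UNC-6 is secreted ventrally; it attracts axons through UNC-40, the worm homolog of DCC, and repels them where UNC-5 acts as well. DBL-1 is a BMP-like ligand that sets body size through the receptors SMA-6 and DAF-4 and the Smads SMA-2, SMA-3 and SMA-4. The tagged protein in these worms came from a germline promoter, while the known action on unc-129 is in muscle. In whole worms, fewer nuclei with the tagged protein and less binding per nucleus cannot be told apart.

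Only unc-40 had a peak of the authors' final (optimal) list from 2000 bp upstream of its transcript start to its end. That is 1 of 10 genes, against 7.5% of all protein-coding genes, so the share was near the background. unc-129 itself had no optimal peak, and its single region in the list from both replicates pooled stood low in that list. For 8 of the 10 genes the pooled list held at least 1 candidate region, against 57.9% of all genes, and unc-6 and sma-6 had none. The candidate lists mix peaks with background by design: only 18.6% of the 22106 pooled regions had a deposited q-value of 0.05 or less, and the 1168 optimal peaks are those of highest signal, from 53.5 upward. Sequencing depth cannot be read from these lists.

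The summit is the base at which the authors' caller placed the centre of a region. The sequences at summits of the members are shown so that the places the lists point to can be seen; each is 30 bases of the gene's own strand, 5′ to 3′, from the RefSeq copy of WBcel235 (ce11), with the summit base in capitals. None is shown for unc-40, daf-4 or sma-3, and not every summit is shown for the other genes.
unc-129, pooled and replicate 2 summit, chrIV:9004976-9005005: ctattattataattTcaaataattgttttt
unc-129, replicate 1 summit, chrIV:9005839-9005868: tcatttttgtttttTtatgtgtattccatg
unc-6, replicate 2 summit, chrX:6888752-6888781: ctgtagaaatgaaacCtgctaaagtttttt
unc-5, best pooled summit, chrIV:5516128-5516157: aatgtagctcaaaaTgggtgagtatttgag
sma-2, best pooled summit, chrIII:8751420-8751449: ttgcataatttctacAgtacatcctaacga
sma-4, pooled and replicate 2 summit, chrIII:5816729-5816758: ccagtgaccaaatcgAtaagcttttcaaaa
The unc-129 window on the pooled summit is AT-rich, with 3 of its 30 bases G or C, and none of these 6 windows holds the forkhead core string TAAACA. A daf-4 window not shown, at the best summit of replicate 2, held that string 1 time. At dbl-1 the pooled summit fell on TAAACA, which is in capitals here.
dbl-1, pooled summit, chrV:6758136-6758165: ctgattatgcgcTAAACAagaggagagtcg

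The ligand genes had low-ranked regions or none. unc-129 (WBGene00006852, chrIV:9002839-9005410, minus strand) had 1 pooled region, at chrIV:9004776-9005205, with a signal of 13.15 and rank 17744 of 22106. Its deposited −log10 q was 0.0686. The summit lay in an intron, 419 bp downstream of the transcript start. Replicate 2 placed a region with its summit at the same base, with a signal of 9.162 and rank 13518 of 20625. Replicate 1 had no region there; its only unc-129 region was 444 bp upstream of the start, at chrIV:9005634-9006073, with a signal of 8.289 and rank 18176 of 21622. The replicates thus named different places at unc-129, both in the lower part of their lists. Of all genes with a pooled region, 90.2% had a stronger best region than unc-129.

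dbl-1 (WBGene00000936, chrV:6758135-6760418, plus strand) had 1 pooled region at chrV:6757936-6758365, with a signal of 13.4 and rank 17122, and its summit lay in the 5′ UTR, 16 bp from the start. Neither replicate list had a region in the dbl-1 span. A stronger pooled region, with a signal of 31.42 and rank 2922, had its summit 199 bp beyond the gene end, and its nearest start was that of T25F10.4. It is outside the rule for dbl-1. The netrin gene unc-6 (WBGene00006746, chrX:6889674-6897147, plus strand) had no pooled and no replicate 1 region. Its 1 region in replicate 2, with the summit 907 bp upstream, had a signal of 7.461 and rank 20427 of 20625, close to the bottom of that list.

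**Figure D1:**
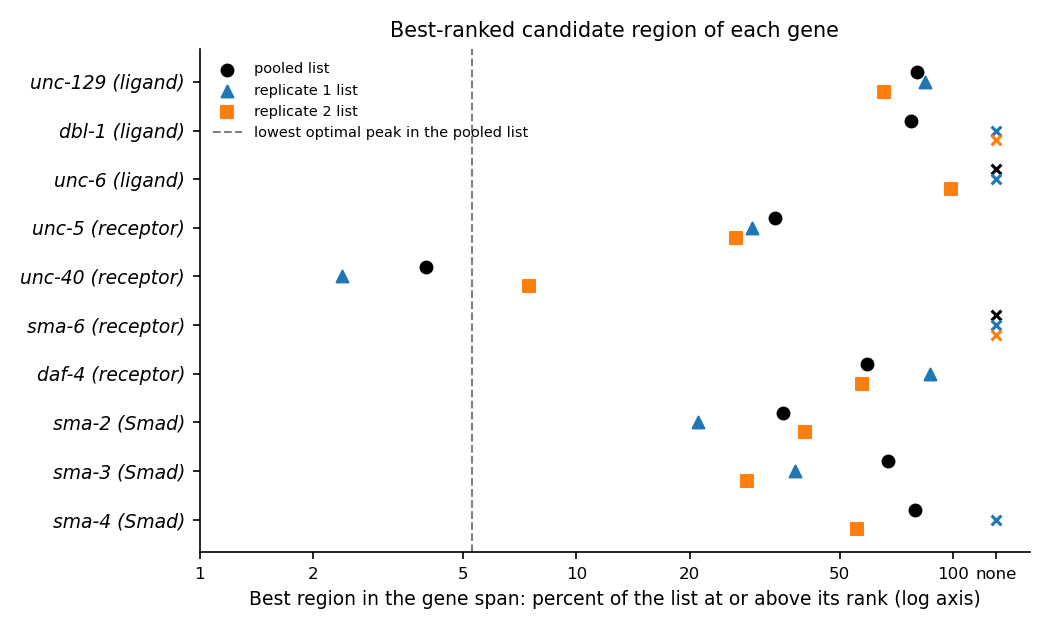
Best-ranked candidate region of each gene in the pooled (circles), replicate 1 (triangles) and replicate 2 (squares) lists, as the percent of the list at or above its rank, on a log axis; crosses mark lists with no region in the gene span, and the dashed line is the lowest optimal peak in the pooled list. Only unc-40, at 4%, lies left of the line in the pooled list.

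Of the receptors, unc-40 had the peak. unc-40 (WBGene00006776, chrI:5679837-5691503, minus strand) encodes a netrin receptor that has also been described as taking part in DBL-1 signalling. The optimal peak was at chrI:5691549-5691978, with a signal of 61.89, rank 884 of the 1168 optimal peaks and a deposited −log10 q of 3.56, the highest value of the pooled list, which 1819 pooled regions and all 1168 optimal peaks share. The replicates ranked it unequally. In replicate 1 the region had a signal of 44.46 and rank 516, with the summit 271 bp upstream of the start. In replicate 2 it had a signal of 23.25 and rank 1544, with the summit 227 bp upstream. The region was therefore among the 1168 best of replicate 1 but not among those of replicate 2, where 0 of the 10 genes had such a region, against 7.47% of all genes; in replicate 1 the corresponding share of all genes was 7.42%.

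The unc-40 peak lies between 2 genes transcribed away from each other. Its summit was 261 bp upstream of unc-40 and 500 bp upstream of npp-7 (WBGene00003793), which encodes a nucleoporin, and the starts of these genes are 761 bp apart. The peak is counted for both genes, and the lists do not tell which of them it belongs to. A second pooled region in the same gap, at chrI:5691807-5692236 with a signal of 17.13 and rank 10436, was nearer to npp-7 (242 bp) than to unc-40 (519 bp). Replicate 1 also had it (signal 15.62, rank 4523), and replicate 2 had no separate summit there. The other pooled regions of unc-40 were at its far end, in the 3′ UTR (signal 22.14, rank 5982) and in a coding exon (16.52, rank 11328), both nearer to the start of aprt-1. A further region of signal 21.76 lay 73 bp beyond the gene end.

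unc-5 (WBGene00006745, chrIV:5495664-5528338, minus strand) encodes the receptor for repulsion from netrin and is the longest of the 10 genes. It had 4 pooled regions, with signals of 19.99, 18.4, 14.64 and 14.41. The first lay in a coding exon 12195 bp from the start and the second in an intron 24443 bp from it. The third was 1781 bp upstream and the last in an intron 8326 bp from the start. unc-5 has 7 annotated transcripts, and these distances are from the most upstream start. The best region, of signal 19.99, also lay from 1000 bp upstream to 200 bp downstream of another unc-5 transcript start. The region of signal 18.4 was nearer to the start of B0273.1 (9903 bp). The best region had rank 7472 in the pooled list. Overlapping regions had rank 6318 in replicate 1 (signal 13.52) and 16373 in replicate 2 (8.364). The best unc-5 region of replicate 2 was another, 1644 bp upstream, with rank 5489 (signal 13.32). The replicates thus differed in which unc-5 region stood highest. All 4 pooled summits had a 21U-RNA gene, the piRNA type of this worm, within 200 bp; such genes are known to lie in dense clusters on chromosome IV. Of all nuclear pooled summits 2.27% had one this near, of those on chromosome IV 11.3%, and of the 215 from 5 to 6 Mb on chromosome IV, around unc-5, 34%.

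The DBL-1 receptors had weak regions or none. sma-6 (WBGene00004860, chrII:6324484-6327355, plus strand) had no region in any list, although a pooled region of signal 25.26, whose nearest start was that of efr-3 at 55 bp, had its summit 1270 bp upstream of the span. daf-4 (WBGene00000900, chrIII:5625135-5632323, plus strand), whose receptor is shared with the dauer pathway, had 4 pooled regions with signals of 15.39, 14.72, 11.87 and 11.61. The strongest was in a coding exon, 94 bp from the start, with rank 13088, and the weakest, at rank 21965, was near the bottom of the list. The best daf-4 regions of the replicates had their summits elsewhere. That of replicate 1 was 85 bp upstream (signal 8.137, rank 18801), in a region that overlaps the strongest pooled one. That of replicate 2 was 5713 bp downstream (9.726, rank 11838), nearer to the start of ckk-1 (4631 bp).

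The Smad genes, all on chromosome III, had 10 pooled regions together and no optimal peak. sma-2 (WBGene00004856, chrIII:8749680-8757089, plus strand), a receptor-regulated Smad, had 6 of them, with signals from 12.15 to 19.51. Its best region had rank 7851 and lay in an intron, nearer to the start of ugtp-1 (729 bp) than to its own (1755 bp). A pair of further regions (signals 17.15 and 13.93) lay in introns that also hold tomm-70, a mitochondrial import receptor gene. In replicate 1 the region 4194 bp from the start, inside tomm-70, stood highest (signal 15.58, rank 4550), and the best of replicate 2 was 1997 bp from the start (11.26, rank 8380). Of the 6 regions, only 1 was nearest to the start of sma-2 itself, 798 bp upstream of it, with a signal of 12.34 and rank 19791, and its summit is inside the neighbouring gene ugtp-1.

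sma-3 (WBGene00004857, chrIII:6860974-6863968, minus strand), the partner Smad of SMA-2, had pooled regions of signal 14.42, 12.7 and 12.1. Upstream of it the replicates pointed to different places. Replicate 2 had its region 555 bp upstream, with a signal of 12.98 and rank 5857. Replicate 1 had regions 1139 and 1867 bp upstream, with signals of 10.56 and 12.09 and ranks 11172 and 8231. The farther of these is also inside the neighbouring gene cra-1. sma-4 (WBGene00004858, chrIII:5816232-5820204, plus strand), the common Smad, had 1 pooled region, 512 bp from the start in an intron (signal 13.22, rank 17566). Replicate 2 had its summit at the same base among 4 sma-4 regions of signal 7.926 to 9.869, and replicate 1 had none. The strongest of these 4 had its summit 1004 bp upstream of sma-4, inside R12B2.7 and 183 bp from the start of that gene. A stronger pooled region (signal 16.2, rank 11830) had its summit 98 bp beyond the gene end. As at unc-129, the pooled region of sma-4 was overlapped by a region of replicate 2 only.

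**Figure D2:**
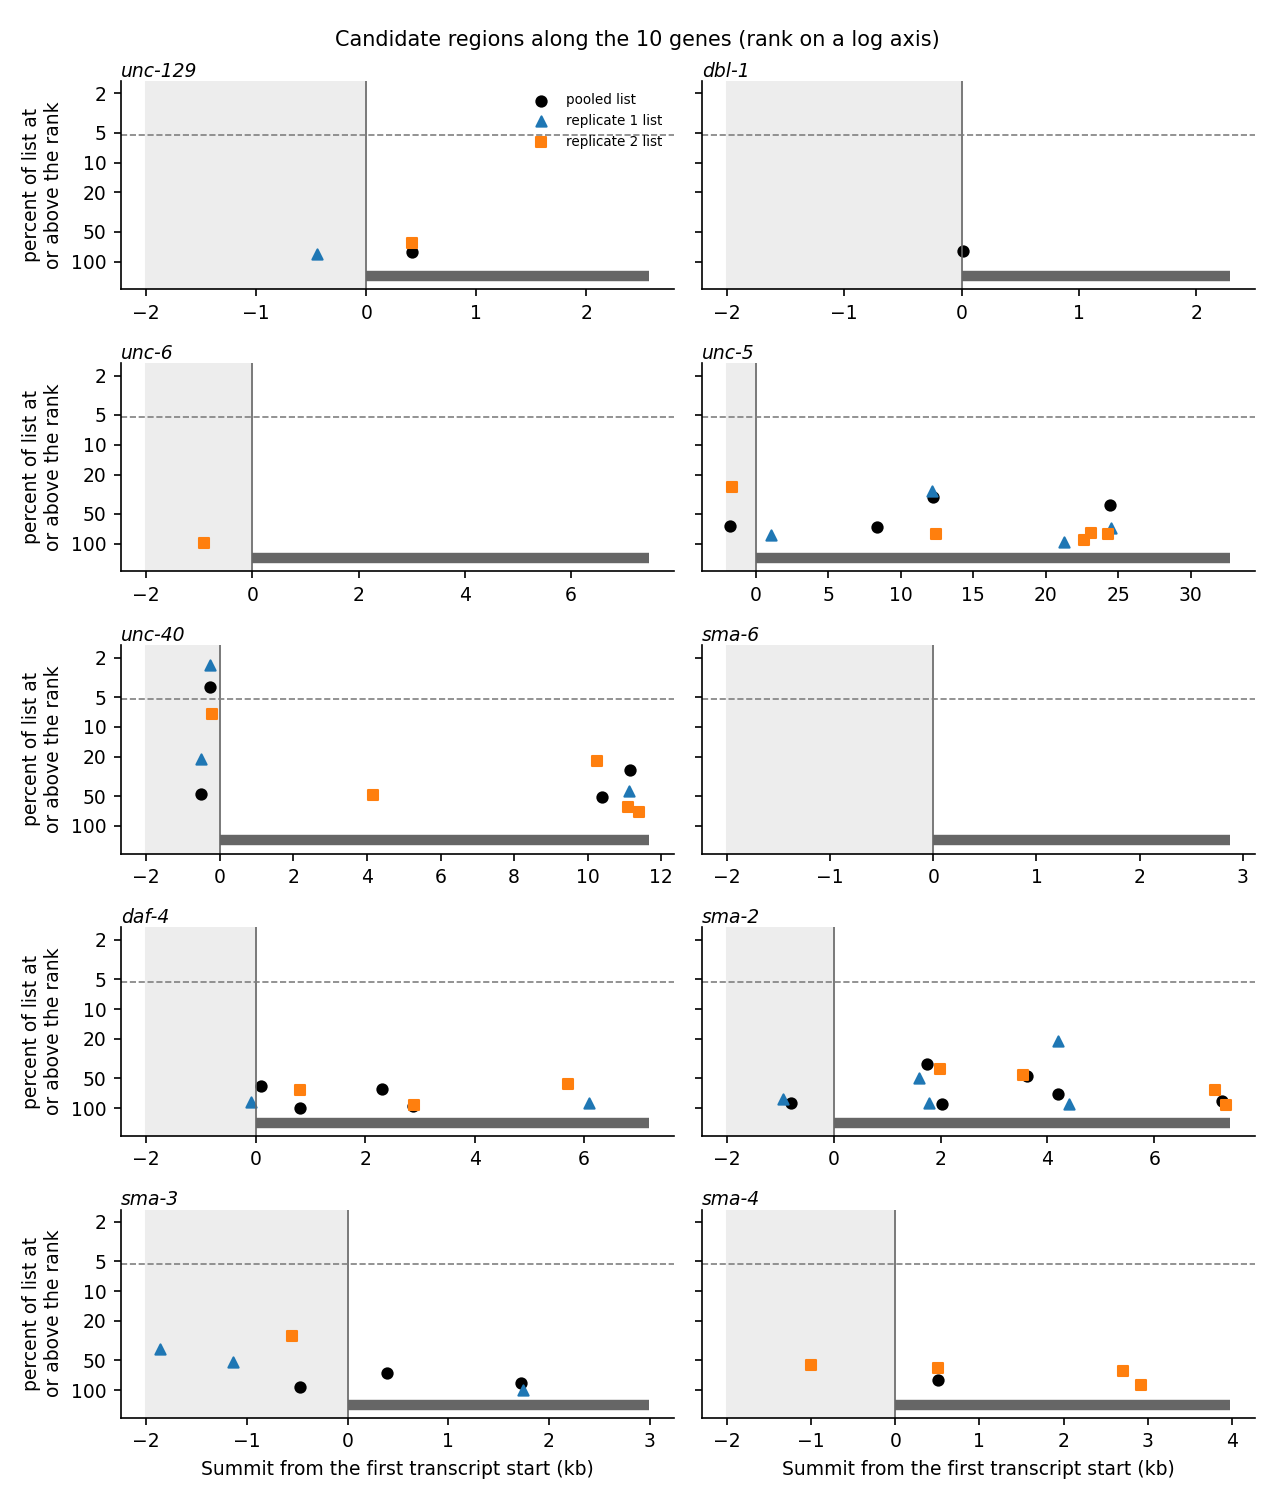
Candidate regions along the 10 genes by distance of the summit from the most upstream transcript start (kb), with the percent of the list at or above the region's rank on an inverted log axis; circles are pooled, triangles replicate 1 and squares replicate 2 regions. Grey shading is the 2000 bp upstream, the bar is the gene, and the dashed line is the lowest optimal peak of the pooled list; only unc-40 has regions above it.

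Apart from the unc-40 peak, the 23 pooled regions of these genes had signals from 11.61 to 22.14, and a gap separates the next highest from the lowest optimal signal of 53.5. Their −log10 q reached 0.729 at most, a q-value of 0.187, so that 1 of 10 genes had a pooled region at a q-value of 0.05 or less, against 20.8% of all genes. Of the 23, 6 were above the median signal of the pooled list, 16.7. The median over genes of the best pooled signal was 14.9 for the 8 members with a region and 21 for all genes with one. In order of their best pooled signal the genes ran unc-40, unc-5, sma-2, daf-4, sma-3, dbl-1, sma-4 and unc-129. With 1 pooled value each and replicate ranks that change places, the genes below unc-40 have no settled order.

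**Figure D3:**
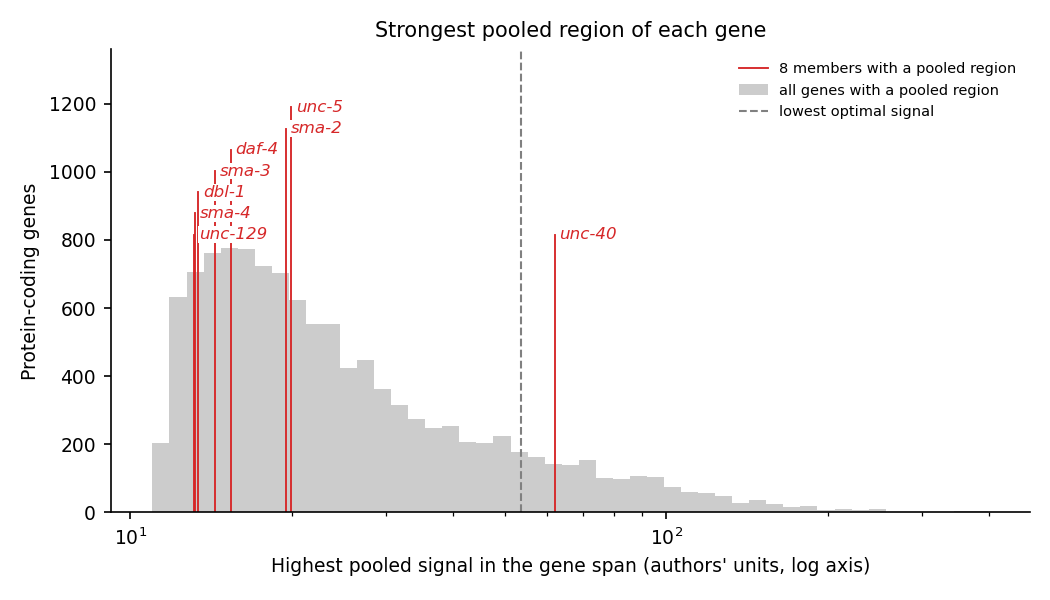
Highest pooled signal in the gene span on a log axis, for the 8 members with a pooled region (red lines) and as a histogram over all protein-coding genes with one (grey); the dashed line is the lowest optimal signal, 53.5. The members other than unc-40 lie between 13.15 and 19.99, below the median of 21 over all genes with a region.

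The density of candidate regions at these genes was close to that elsewhere over the summed spans. The 10 spans add up to 101.1 kb and held 2.37 pooled regions per 10 kb, against 2.48 over the spans of all genes together. For optimal peaks the density was lower at the members, 0.0989 per 10 kb against 0.157, and rests on 1 peak. The median by gene of the pooled density ran the other way, 2.26 at the members against 1.87 over all genes. By gene the pooled density went from 0 at unc-6 and sma-6, over 1.15 per 10 kb at unc-5, to 6.01 at sma-3 and 6.38 at sma-2. The median span was longer for the members, 7.58 kb against 4.03 kb for all genes, and longer spans have more room for a region. Of the 24 pooled summits, 12 were in introns, 5 in coding exons, 5 upstream, 1 in a 5′ UTR and 1 in a 3′ UTR. For 9 of them the nearest protein-coding start was that of another gene. Neither the places nor the nearest starts were counted over all pooled summits, so these counts set nothing apart at the 10 genes.

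**Figure D4:**
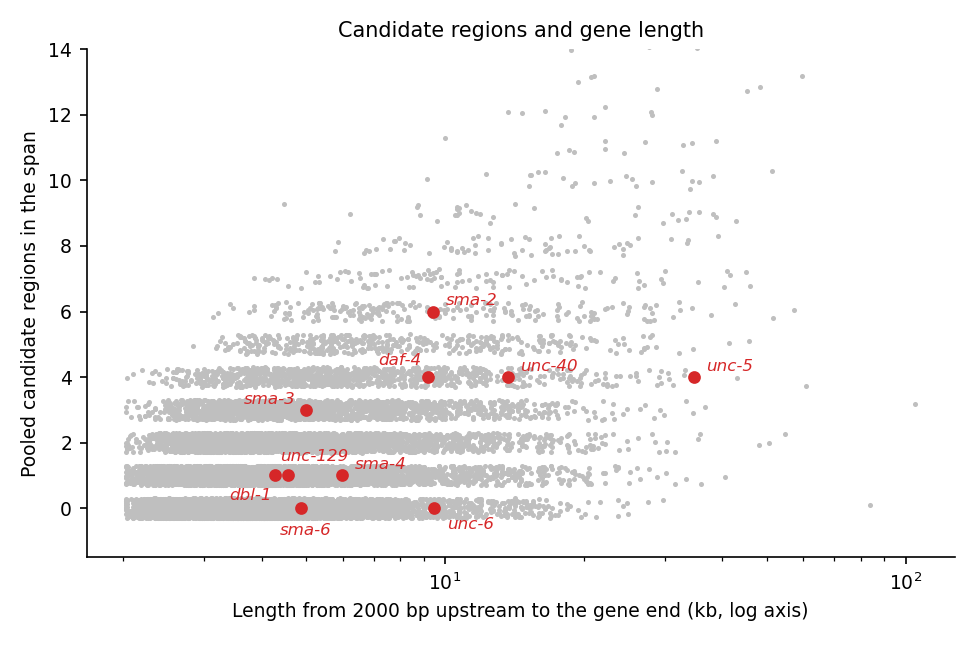
Number of pooled candidate regions in the span from 2000 bp upstream to the gene end against its length on a log axis, for the members (red) and all protein-coding genes (grey, moved up or down slightly at random so that points can be seen); 8 genes above the plotted range are not drawn. unc-5, with 34.7 kb, had 4 regions, and sma-2, with 9.41 kb, had 6.

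Of the 24 pooled regions, 7 were overlapped by at least 1 bp in both replicates, among them the unc-40 peak, and 4 in neither. Over all nuclear pooled regions the shares were 44.2% and 9.8%. Of those below the optimal list, where 23 of the 24 lie, 41.2% were overlapped in both. An overlap does not mean a shared summit: the 7 include the weaker region between unc-40 and npp-7, whose overlapping replicate 2 region is that of the peak, with its summit 292 bp away. A summit of each replicate lay within 100 bp of the pooled summit at 2 of the 24 regions, the unc-40 peak and the unc-40 region in the 3′ UTR, against 23.2% of all nuclear pooled regions. Replicate 1 had 18 regions at these genes, of which 8 (44.4%) overlapped a replicate 2 region, against 45.8% of all its nuclear regions. Replicate 2 had 24, of which 7 (29.2%) overlapped a replicate 1 region, against 47.1%. Of nuclear optimal peaks, 99.9% were overlapped in both. By gene, 6 of 10 had a region somewhere in the span in replicate 1 (57.7% of all genes), 8 in replicate 2 (59.1%) and 6 in both (44.4%).

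The forkhead consensus GTAAACA was in none of the 24 windows of 200 bp centred on the pooled member summits, searched on both strands, against 2.21% of all pooled and 2.97% of optimal windows. Its shorter core TAAACA, which the consensus contains, was in 2 windows (8.33%), that of dbl-1 and the weaker unc-40 region, against 14.5% of all pooled windows. The string TTCCCGC of the cell cycle factor E2F, or a form of it (TTCGCGC or TTGCCGC or also TTGGCGC), was in 3 windows (12.5%), against 9.45% of pooled and 23.4% of optimal windows. The window of the unc-40 peak held 1 of these forms, 84 bp from the summit. The Smad string GTCTAG was in 1 window, upstream of sma-2 (4.17% against 3.68%), and the reversed forkhead control ACAAATG in 4 (16.7% against 4.32%). These counts of 0 to 4 windows are too small to compare, and the control string had the most. The G and C content of the windows had a median of 32.8% at the members, against 36.5% in all pooled and 39.5% in optimal windows, and was 48.5% at the unc-40 peak and 31% at unc-129.

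Upstream of the genes the consensus GTAAACA did occur, but away from the regions of the lists. In the 2000 bp before the start it was found 4 times at 3 of the 10 genes, against 23% of all protein-coding genes with 1 or more. These matches are shown with the 7 bases in capitals on the gene's strand, to set the strings a forkhead protein is known to bind beside the lists.
unc-6, 457 bp upstream, chrX:6889200-6889229: ataaaaattatGTAAACAttttcttgttaa
dbl-1, 1149 bp upstream, on the other strand, chrV:6756969-6756998: cttcttgcaaaTGTTTACcaaccaaaatct
daf-4, 1402 bp upstream, chrIII:5623716-5623745: ttgttgtcaagGTAAACAcaaaaaatatat
daf-4, 1849 bp upstream, chrIII:5623269-5623298: aatttgaaaaaGTAAACAtaagtttagttc
No pooled summit of these genes lay within 100 bp of a match. unc-129 had no GTAAACA in this window; it held TAAACA once, 1757 bp upstream, as 79.8% of all genes did at least once. A match is a string and not a shown binding site, and its absence says nothing of binding.

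Other genes of these pathways had optimal peaks at shares near the background. Of 23 further genes of TGF-beta signalling, among them the dauer ligand gene daf-7 and its Smads, 1 had an optimal summit in the span (4.35%), and of 28 further genes of axon guidance also 1 (3.57%), against the 7.5% of all genes; counts this small do not set the lists apart. At the TGF-beta ligand gene tig-2 the summit (chrV:4731313-4731742, signal 101, rank 280) was 1367 bp upstream and nearer to F39G3.3, at 383 bp. It had rank 449 in replicate 1 and 165 in replicate 2, so both placed it among their best regions. At unc-115, which encodes an actin-binding protein of axon guidance, there were 2 peaks. One (chrX:10144983-10145412, signal 73.2, rank 618) was upstream, with rank 1158 in replicate 1 and 504 in replicate 2. The other (chrX:10148371-10148800, signal 62.1, rank 879) was in an intron, with ranks 981 and 912. A pooled region was found at 20 of the 23 genes and 26 of the 28, against 57.9% of all genes; their median spans were 7.23 and 11.4 kb, and their median best signals 20.3 and 20.1.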

How the data were processed

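The authors deposited region lists and no read counts. Per the listings deposited with the files, each candidate list was derived from alignments of the replicates and a control, and the optimal list from the candidate lists by the irreproducible discovery rate (IDR) procedure. Which caller and which IDR cut-off were used is not given in the sources used here. Each region's signal is the authors' deposited value on an unstated scale, used within a list only. The −log10 q-value and the summit offset in base pairs, which falls under no other unit, are also as deposited. The ce10 replicate lists were not used; of the ce10 lists only the optimal threshold was applied.

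Genes were taken from the Ensembl release 115 annotation of WBcel235, the same assembly as ce11; 0 region ends lay beyond a chromosome end. A region belonged to a gene when its summit lay from 2000 bp upstream of the gene's most upstream transcript start to the gene end, and could belong to several genes. Ranks were taken over the whole list, mitochondrial entries included. Sequences came from the RefSeq copy of WBcel235. Coordinates are 1-based. The assignment of summits to gene spans was tested on simulated positions, and the summits themselves are as deposited. Python 3.11.15 and pandas 2.3.3 were used. The members, gene lists and strings were chosen with earlier results of these data known. With 1 group and no counts, no test was run. All 10 members are named, with listed pathway genes that had an optimal summit and genes whose start lay nearer to a member's region. Alternatives are given in the closing section.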

Additional observations from a re-analysis of the deposited data

How the results depend on the processing

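unc-40 remained the only member with an optimal summit under spans of 1000 or 5000 bp upstream and with overlap in place of the summit. The same held with the nearest start only and in promoter windows (1000 bp upstream to 200 bp downstream). Taking distinct regions changed no count of peaks or regions. A threshold at the lowest optimal ce10 signal (46.8), added after the data were seen, also left only unc-40. It could give no other count, as it lies between the signals of the unc-40 peak (61.89) and the next member region (22.14). The count was 0 for the 584 optimal peaks of highest signal. For a single replicate, the 1168 regions of highest signal in its candidate list stood in for the optimal list. Leaving out each replicate in turn, the count was then 0 to 1. It was 0 without replicate 1, as the unc-40 region was present in replicate 2 but at rank 1544. For these alternatives no share over all genes was counted, and the 7.5% and 57.9% of the main setting are no background for them. The 24 pooled regions became 15 with the nearest start only. In promoter windows 9 were left, at 6 members, and unc-129 and sma-4 no longer had one. Among the 11053 pooled regions of highest signal 7 were left, and 3 members had one. In that stricter set the median over members of the best region's place was 33.8% of the list. It rests on 3 members and could fall only in the upper part of the list. With all pooled regions this median was 63.3%. It was 72.4% with the nearest start only, 68.3% in promoter windows and 44.5% by overlap. Without replicate 2 it was 33.6%, over 6 members, and without replicate 1 it was 48.1%, over 8. The best region of sma-2, at 35.5% in the main setting, was at 89.5% with the nearest start only and in promoter windows. That of sma-3 went from 67.3% to 92.7% in promoter windows. By overlap the best regions of dbl-1 and sma-4, each at the gene end, were at 13.2% and 53.5% of the list. With summits of both replicates within 100 bp, a rule added after the data were seen, 2 in place of 7 pooled regions were found in both. Windows of 100 bp gave 1 E2F, 0 Smad and 1 control match, and windows of 400 bp 1 match of the consensus and 6 of its core. The consensus was in 2 of the 18 member windows of replicate 1 and in 0 of the 24 of replicate 2. Its absence thus holds for the pooled summits, and its share over all replicate windows was not counted. Without 1 replicate the counts were 1 for E2F, 0 to 1 for Smad and 2 to 3 for the control. The cause was not tested. The unknown depth limits every weak region.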

Other observations

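The optimal peaks nearest to other members had the starts of other genes closest to them. That nearest to sma-6 was 7081 bp from its start, at the histone methyltransferase gene set-4 (signal 53.83, rank 1147), just above the lowest optimal signal. That nearest to sma-2 was 8033 bp upstream at pdhk-2 (signal 86.51), and that nearest to unc-5 was 13204 bp upstream at tebp-2, which encodes a telomere-binding protein (signal 64.15). For unc-129 the nearest was 31655 bp from the start, at C53B4.3 (signal 75.1). Within 2321 bp beyond either end of the unc-129 span the pooled list held regions of signal 13.89 and 33.06, both nearer to other genes.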
